A study of Mus musculus with 3 samples.

Results

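Transcripts of 7 circadian clock genes, Arntl (the gene of BMAL1), Clock, Npas2, Cry1, Cry2, Rora and Nfil3, were followed across cell classes of the mouse aortic intima by single-cell RNA sequencing. The genes were taken by symbol from the gene list of every library, and all 7 were present among 32285 listed genes. The set holds the activators of the clock and genes whose transcripts peak with Arntl or with Cry1, away from the peak of the output genes. It was selected on the LPS against control levels of clock genes in these same libraries, so that those levels are given as a description. The standard errors (SE) and counting intervals printed beside them are part of that description. They are no test of the members, and no call is drawn from them.

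There were 3 droplet libraries of cells dislodged from the luminal surface of the arch, on its lesser curvature, 1 of LPS-treated and 2 of untreated mice. The LPS library came from C57BL/6J wildtype mice aged 12 to 13 weeks that received 30 micrograms of ultrapure LPS, a bacterial endotoxin, into the vein, with harvest 18 hours later. The control libraries came from mice of the same strain, age and wildtype genotype without treatment. Each library pooled males and females, 5 to 10 animals, and all aortas were perfused with the transcription blocker actinomycin D. The labels do not number the controls, which are called control 1 and control 2 in the order of their records, and nothing beyond the pooling says how far they are separate experiments. The hour of the day at harvest was not found in the labels used here, so for clock genes the LPS treatment and the time of harvest cannot be told apart.

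In the mammalian clock, BMAL1 pairs with CLOCK, or with the related NPAS2, and the pair binds E-boxes to switch on the genes of the PER and CRY repressors, of the REV-ERB receptors (Nr1d1 and Nr1d2) and of the output factor Dbp. CRY proteins close the loop by blocking the pair, ROR receptors and REV-ERB receptors compete at response elements of Arntl and Nfil3, raising and lowering them, and NFIL3 competes with DBP, TEF and HLF at D-boxes. Arntl transcripts therefore run in antiphase to those of Nr1d1 and Dbp in most tissues, and endothelial cells, macrophages and fibroblasts are all known to hold such clocks.

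The promoters of 3 members show these elements in letters, and they are printed because Arntl, Nfil3 and Cry1 carry the differences described below. The windows, from RefSeq (GRCm38.p6), run from 250 bases before to 50 bases after an annotated start, 300 bases in all, 5′ to 3′ on the strand of the gene. Capitals mark matches to the E-box CACGTG, the E'-box CACGTT or the ROR element TAGGTCA or TGGGTCA, on either strand.
Arntl, chr7:113207261-113207560, plus strand: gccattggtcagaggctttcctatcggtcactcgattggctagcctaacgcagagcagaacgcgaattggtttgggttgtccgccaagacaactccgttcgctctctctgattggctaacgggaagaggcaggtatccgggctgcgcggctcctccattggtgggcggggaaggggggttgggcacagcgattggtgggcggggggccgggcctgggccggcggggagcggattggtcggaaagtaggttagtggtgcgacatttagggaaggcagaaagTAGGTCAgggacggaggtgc
Nfil3, chr13:52980990-52981289, minus strand: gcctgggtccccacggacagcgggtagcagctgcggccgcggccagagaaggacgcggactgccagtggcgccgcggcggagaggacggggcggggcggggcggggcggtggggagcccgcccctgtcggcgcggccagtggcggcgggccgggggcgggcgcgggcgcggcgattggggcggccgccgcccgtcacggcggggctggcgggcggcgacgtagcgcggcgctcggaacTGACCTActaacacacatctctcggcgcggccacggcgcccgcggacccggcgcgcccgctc
Cry1, chr10:85185005-85185304, minus strand: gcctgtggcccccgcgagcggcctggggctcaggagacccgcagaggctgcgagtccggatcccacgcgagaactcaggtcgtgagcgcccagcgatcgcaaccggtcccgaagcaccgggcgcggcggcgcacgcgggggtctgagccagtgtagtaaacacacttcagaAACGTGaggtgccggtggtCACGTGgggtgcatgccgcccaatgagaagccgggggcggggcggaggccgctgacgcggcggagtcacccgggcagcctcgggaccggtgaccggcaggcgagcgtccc

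In the Arntl window a ROR element, TAGGTCA, starts at position 30 relative to the start site, and in the Nfil3 window the same element lies on the opposite strand, from position -12. The Cry1 window holds an E-box from position -60 and an E'-box on the opposite strand from position -79, and the matches do not overlap. Such letters are common. Of 32851 windows of this length, 6.45% held a ROR element, 7.15% an E-box, 4.68% an E'-box and 1.06% a D-box (TTATGTAA or TTACGTAA). Cry2 held an E'-box from position -166, and no match was found in the windows of Clock, Npas2 and Rora or in the other Arntl window. A match is a run of letters and says nothing of binding in these cells.

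Classes of cells were built from clusters that did not use clock genes, and named from marker genes. The libraries held 6000, 1269 and 4813 barcodes with 21864072, 4940996 and 20069697 UMIs (unique transcript tags) in the LPS, control 1 and control 2 libraries, and 5156, 429 and 2693 barcodes were analysed. Endothelial-like cells numbered 189, 68 and 128 in the LPS, control 1 and control 2 libraries, those with macrophage, monocyte or dendritic markers (phagocyte-like) 383, 81 and 210, and fibroblast-like cells 241, 25 and 76. Cells with T, NK or innate lymphoid markers (lymphoid-like) numbered 109, 156 and 1631, and made up the largest class in control 2, although the labels name intimal cells. The LPS library also held 3271 barcodes called near-empty here, against 4 and 1 in the controls. Their clusters got no name from the marker lists, and the predicted gene Gm42418 took at least 40% of UMIs. The name does not rest on depth. In the LPS library they had a median of 1895 UMIs and 514 genes, against 2187 and 744 in fibroblast-like cells. How far they hold free RNA was not tested. LPS and control cells of the endothelial-like and fibroblast-like classes lay in different clusters throughout, while the phagocyte-like and lymphoid-like classes shared some clusters. Values of a class thus compare different clusters as well as different treatments. Only 1 to 6 cell barcodes were shared by any pair of libraries. Levels are given as CPM, the counts of a gene per 1e6 UMIs of the class. A transcript with a large share lowers the CPM of all others. Gm42418 took 58.8 and 54.8% of UMIs in near-empty clusters of 1929 and 1245 barcodes. It took 12.6 and 27.3% in the LPS endothelial-like and fibroblast-like clusters. Haemoglobin took 84.0, 63.3 and 87.2% in erythroid-like clusters of 296, 250 and 119 barcodes. Levels of near-empty and erythroid-like barcodes thus do not by themselves measure free RNA in other classes. Endothelial markers summed to 5268, 6381 and 7434 CPM in the endothelial-like cells of the LPS, control 1 and control 2 libraries, with 12, 11 and 12 of 12 detected (Robo4 at 0 in control 1). Erythroid markers summed there to 4735, 443 and 27964 CPM, with 6, 4 and 7 of 8 detected. Smooth muscle markers summed there to 456, 572 and 3634 CPM and fibroblast markers to 1412, 1384 and 2344. The part of these other markers in the values below was not tested. Fibroblast markers of the fibroblast-like cells summed to 12605 CPM in the LPS library, against 34407 and 31965 in controls 1 and 2, and erythroid markers to 10056, against 604 and 311. Lymphoid markers of the lymphoid-like cells summed to 6577 CPM in the LPS library, against 13864 and 14702, and erythroid markers to 21260, against 381 and 2751. In a sum over cells, fewer expressing cells and less RNA per cell cannot be told apart.

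Arntl, the activator without which the clock stops in mice, was read 56 times in LPS endothelial-like cells, against 0 times in control 1 and 0 times in control 2. That is 32.8 CPM in the LPS library (scaled by TMM, a normalization for composition), and at least 10.6-fold more than in the controls when the 3 UMIs that a count of 0 allows are set over both. The single LPS value lay above both controls, as it did for 37.9% of all genes tested in endothelial-like cells. The controls gave no UMI of Arntl in 255145 and 678345 endothelial-like UMIs, although Arntl was well read in other cells of the same libraries. In controls 1 and 2, 53 of 68 and 80 of 128 of these cells lay in 1 sub-cluster. It was split from a cluster that also held erythroid-like and smooth muscle-like cells. The remaining control sub-clusters also had 0 Arntl UMIs.

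Within the LPS library Arntl was at 30.7, 31.5 and 30.2 CPM in endothelial-like sub-clusters of 98, 70 and 21 cells. These levels rest on 14, 40 and 2 UMIs, too few to say that Arntl was even across them. The same library gave 16.3 Arntl CPM in near-empty barcodes (Poisson interval 13.4 to 19.6) and 2.60 in erythroid-like cells, against 31.2 (23.6 to 40.6) per all UMIs of the endothelial-like cells. Gm42418 took 58.8 and 54.8% of UMIs in the main near-empty clusters, against 12.6% in the LPS endothelial-like cluster. These levels thus have unequal denominators, and no excess over free RNA is read from them. An Arntl UMI was present in 44 of 189 LPS endothelial-like cells (23.3%). Thinned to 1000 UMIs per cell, 6 of 189 LPS endothelial-like cells held an Arntl UMI (3.17%, Clopper-Pearson 95% interval 1.17 to 6.78%), against 0 of 46 in control 1 and 0 of 128 in control 2, which allow up to 7.71% and 2.84%. The intervals of these endothelial-like shares overlap, and 22 shallower cells of control 1 were left out. In LPS erythroid-like cells, whose UMIs were mostly haemoglobin, the thinned share was 3 of 800 (0.375%). Median depths before thinning were 4956, 1290 and 2955 UMIs in endothelial-like cells of the LPS, control 1 and control 2 libraries and 7787 in LPS erythroid-like cells.

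Fibroblast-like cells had 10 Arntl UMIs in the LPS library, against 0 in both controls, at least 1.88-fold more. Phagocyte-like cells had 15.8 Arntl CPM in the LPS library, against 10.6 in control 1 and 7.54 in control 2. Their ratio of 1.96 had a counting interval of 0.909 to 4.70, which includes no difference. Per all UMIs of the class, LPS fibroblast-like cells had 11.2 Arntl CPM (Poisson interval 5.36 to 20.6). In LPS phagocyte-like cells that interval was 10.1 to 21.4, from 30 UMIs. Both levels lay below the 16.3 of near-empty barcodes and above the 2.60 of erythroid-like cells, at unequal shares of Gm42418 and haemoglobin. The part of free RNA in them was not tested.

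Lymphoid-like cells held the highest Arntl levels of the 4 classes in the controls, and there the order of the libraries was the reverse. Arntl stood at 34.4 CPM in the LPS library, against 46.6 in control 1 and 52.5 in control 2, below both. The ratio was 0.662 with a counting interval of 0.407 to 1.02, so the counts alone allow no difference. Lymphoid markers were lower in the same LPS sum, at 6577 CPM against 13864 and 14702, and their part in this order was not tested.

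**Figure D1:**
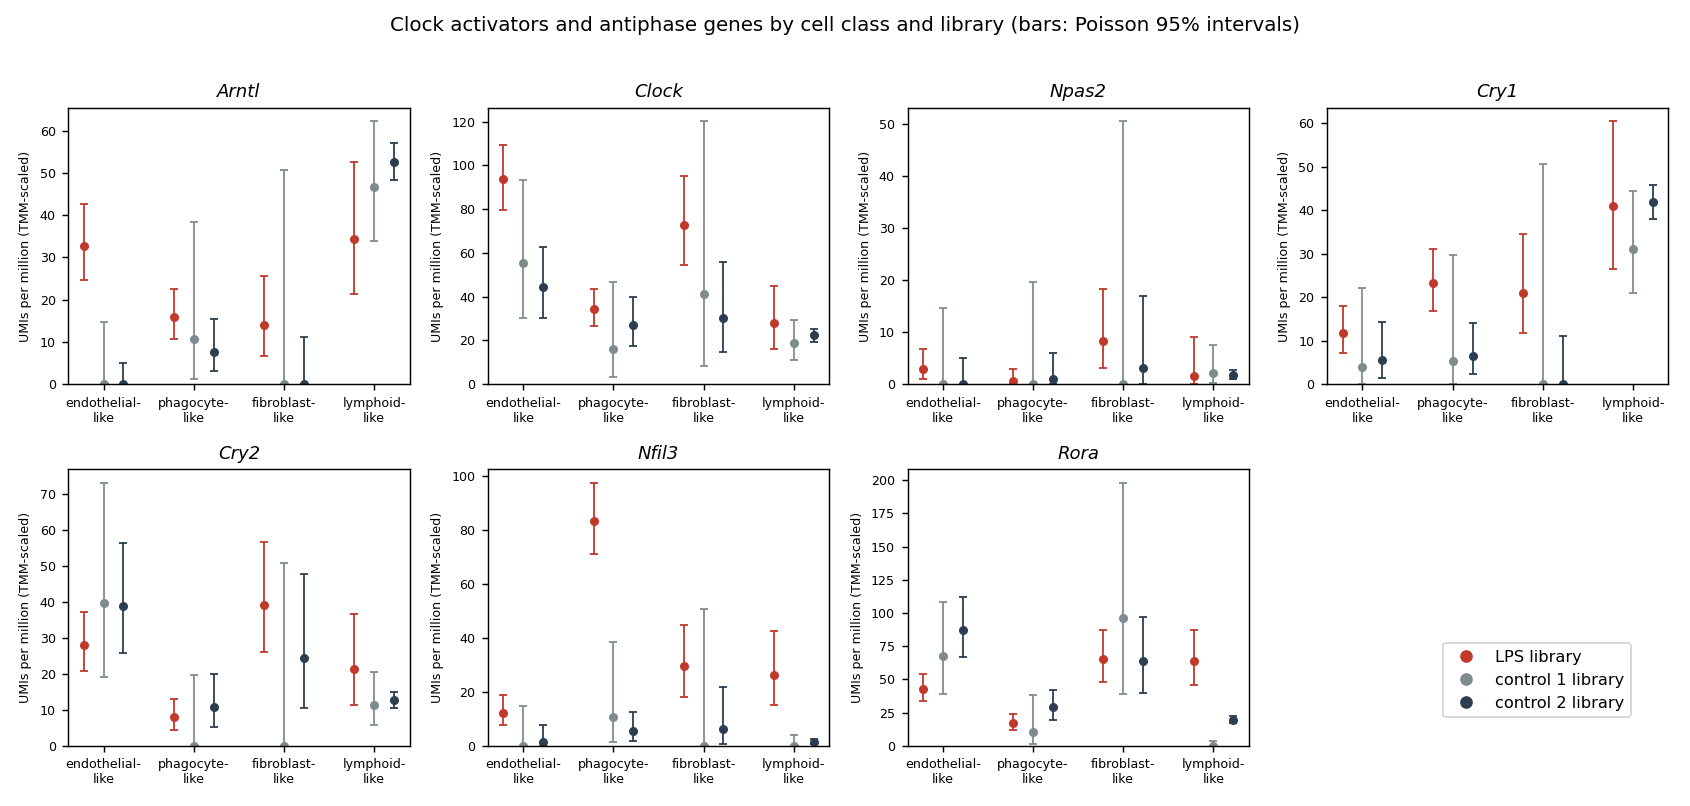
CPM (TMM-scaled within each class) of the 7 genes in 4 cell classes, with points for the LPS, control 1 and control 2 libraries and exact Poisson 95% intervals as bars. Arntl is at 32.8 in LPS endothelial-like cells beside 2 controls at 0, Nfil3 reaches 83.3 in LPS phagocyte-like cells, and Arntl is lower in LPS lymphoid-like cells than in either control.

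Clock, the histone acetyltransferase partner of BMAL1, had 93.6 CPM in LPS endothelial-like cells, against 55.6 in control 1 and 44.4 in control 2. LPS lay above both controls, with a log2 difference of 0.94 ± 0.43 (SE). In fibroblast-like cells Clock had 72.7 CPM in the LPS library, against 41.2 and 30.3 in controls 1 and 2, a log2 difference of 1.12 ± 0.66. Phagocyte-like cells (34.3 against 16.0 and 26.9) and lymphoid-like cells (27.9 against 18.6 and 22.2) lay above both controls by less, with log2 differences of 0.53 ± 0.61 and 0.43 ± 0.42. Near-empty barcodes of the LPS library held 43.9 Clock CPM, against 89.2 per all UMIs of its endothelial-like cells, 58.2 of its fibroblast-like cells and 32.5 of its phagocyte-like cells. LPS erythroid-like cells held 7.97. These classes differ in their shares of Gm42418 and haemoglobin, and the part of free RNA in the levels was not tested.

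Npas2, the CLOCK relative that can stand in for it, was barely read. There were 5, 0 and 0 UMIs in the endothelial-like cells of the LPS, control 1 and control 2 libraries, 6, 0 and 1 in fibroblast-like cells, 1, 0 and 1 in phagocyte-like cells and 1, 2 and 19 in lymphoid-like cells. A difference in Npas2 was not detectable at this depth.

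Cry1, the cryptochrome whose transcript peaks late, between the output genes and Arntl, was higher in the LPS library in each of the 3 non-lymphoid classes. In phagocyte-like cells it had 23.2 CPM in the LPS library, against 5.32 in control 1 and 6.46 in control 2, a ratio of 3.70 (counting interval 1.65 to 9.74). Fibroblast-like cells had 15 UMIs in the LPS library, against 0 in both controls, at least 2.82-fold more. Endothelial-like cells had 11.7 CPM in the LPS library, against 3.97 and 5.55 in controls 1 and 2, from 20, 1 and 4 UMIs, and the counting interval of the ratio (0.829 to 7.76) includes no difference. Near-empty barcodes of the LPS library held 5.08 Cry1 CPM, a level lowered by their share of Gm42418.

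In lymphoid-like cells Cry1 was at 41.0 CPM in the LPS library, between the controls (31.0 and 41.8). Cry2, the other cryptochrome gene, had 28.1 CPM in LPS endothelial-like cells, against 39.7 in control 1 and 38.9 in control 2, below both, with a log2 difference of -0.48 ± 0.48 and a ratio of 0.719 whose counting interval (0.460 to 1.13) includes no difference. In fibroblast-like and lymphoid-like cells Cry2 lay above both controls, by 28 UMIs against 0 and 8, and 13 UMIs against 11 and 134 in sums of unequal depth (21.3 CPM, against 11.4 and 12.7). Both ratios, 1.97 and 1.70, had counting intervals that include no difference.

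Rora, the gene of a receptor that raises Arntl, was lower in LPS endothelial-like cells. It had 42.7 CPM in the LPS library, against 67.5 in control 1 and 87.4 in control 2, a log2 difference of -0.90 ± 0.44, with LPS below both controls. Near-empty barcodes of the LPS library held 45.7 Rora CPM and its erythroid-like cells 10.4, against 40.7 per all UMIs of its endothelial-like cells and 60.8 of its lymphoid-like cells. The near-empty and erythroid-like values are lowered by their shares of Gm42418 and haemoglobin. In fibroblast-like cells Rora lay between the controls (65.7 against 96.2 and 63.6), as it did in phagocyte-like cells (16.9 against 10.6 and 29.1).

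Lymphoid-like cells showed the opposite order for Rora, with 64.0 CPM in the LPS library, against 0 in control 1 and 19.8 in control 2. The cells behind these values differed. Of the LPS Rora UMIs, 32 came from 36 cells in sub-clusters where under 50% of cells held a UMI of Rag1, the recombinase gene of developing lymphocytes (119 CPM), and 7 from 73 cells in Rag1-rich sub-clusters (18.8 CPM). Rag1-rich sub-clusters held 135 of 156 lymphoid-like cells in control 1 and 1395 of 1631 in control 2. The level in control 2 stood beside 19.9 Rora CPM in its erythroid-like cells. Haemoglobin took 69.8, 84.9 and 83.4% of UMIs in their clusters of 206, 70 and 58 barcodes, which lowers that CPM. The cluster of 206 also had the smooth muscle markers Acta2 and Cnn1 among its top genes. The part of free RNA and of cell make-up in the Rora difference was not tested.

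Nfil3, a repressor at D-boxes that myeloid cells also induce after cytokine and endotoxin signals, was highest in phagocyte-like cells of the LPS library. It had 158 UMIs there in the LPS library, against 2 in control 1 and 5 in control 2. These are 83.3, 10.6 and 5.38 CPM in the LPS, control 1 and control 2 libraries, a log2 difference of 3.64 ± 0.67.

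The Nfil3 CPM differed between sub-clusters of the LPS phagocyte-like cells. A sub-cluster of 7 cells named dendritic gave 29 of the 158 UMIs (189 CPM), and monocyte sub-clusters of 20 and 17 cells gave 67 and 31 (149 and 65.2 CPM). Macrophage sub-clusters of 139, 22 and 177 cells had 44.6, 27.7 and 21.8 CPM, and 1 further cell had 0. Over all their cells, Gm42418 took 23.9, 25.1 and 48.4% of UMIs in these 3 macrophage sub-clusters. It took 5.06% in the dendritic and 6.02 and 3.52% in the monocyte sub-clusters. These levels thus have unequal denominators, whose part in the order of the sub-clusters was not tested. Macrophage markers summed to 4422, 7531 and 12007 CPM in the LPS, control 1 and control 2 phagocyte-like cells, and monocyte markers to 3549, 2073 and 1141, so the make-up of the class moved with treatment. Its part in the Nfil3 difference was not tested.

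Nfil3 was also above both controls in the LPS sums of endothelial-like cells (12.3 CPM, against 0 and 1.39), fibroblast-like cells (29.4 against 0 and 6.06) and lymphoid-like cells (26.2 against 0 and 1.42). Beside these, near-empty barcodes of the LPS library held 21.4 Nfil3 CPM and its erythroid-like cells 2.14. Per all UMIs of the class, LPS endothelial-like, fibroblast-like and lymphoid-like cells had 11.7, 23.5 and 24.9, at or near the level of near-empty barcodes, while phagocyte-like cells had 79.1 and neutrophil-like cells 60.9. The near-empty level is lowered by its share of Gm42418, and the part of free RNA in the levels of the 3 non-myeloid classes was not tested.

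**Figure D2:**
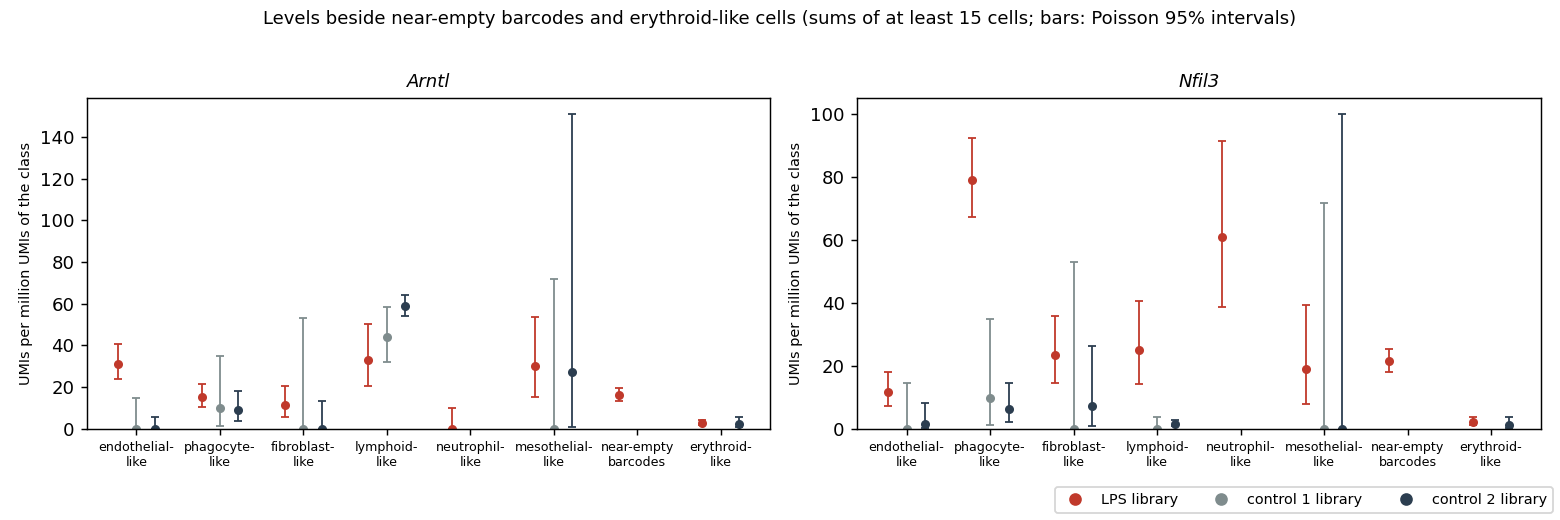
Arntl and Nfil3 as CPM per all UMIs of a class, by library, in 8 classes with exact Poisson 95% intervals as bars. Arntl is at 31.2 in LPS endothelial-like cells beside 16.3 in near-empty barcodes. Nfil3 is at 79.1 in phagocyte-like and 60.9 in neutrophil-like cells beside 21.4 in near-empty barcodes. Gm42418 took 58.8 and 54.8% of UMIs in near-empty clusters of 1929 and 1245 barcodes and 12.6% in the LPS endothelial-like cluster, so the denominators differ.

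Counted over the set, 5 of 7 members lay above both controls and 2 below both in endothelial-like cells, where 37.9% and 35.8% of all tested genes did. In phagocyte-like cells 4 lay above both and 0 below (35% and 30.9% of all genes), in fibroblast-like cells 6 and 0 (38.8% and 32.2%), and in lymphoid-like cells 4 and 2 (37% and 41%). These counts rest on the contrast the set was selected on, and nothing is read from them. Across all genes edgeR's quasi-likelihood test called 6.82% higher for endothelial-like, 3.48% for phagocyte-like, 8.11% for fibroblast-like and 0.765% for lymphoid-like sums. In these fits 4, 6, 2 and 6 members passed the filter on low counts in the endothelial-like, phagocyte-like, fibroblast-like and lymphoid-like sums, and no call is drawn for them.

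Most tested genes that BMAL1 and CLOCK switch on were called lower in LPS endothelial-like and fibroblast-like cells. Of 12 repressor and output genes, 10 passed the filter in endothelial-like cells, and 7 were called lower in the LPS library (Per3, Nr1d1, Nr1d2, Dbp, Tef, Hlf and Bhlhe41) and 0 higher by edgeR (0 at an unadjusted p, and 0 by DESeq2, which called 5 lower). The background share of genes called lower was 6.75%, and the list's median log2 difference of -2.91 stood beside -0.0092 over all genes. The list was set with this contrast known, so its calls are a description and support nothing. With estimated free RNA subtracted, edgeR called 0 of 6565 genes for endothelial-like sums and 0 of 5340 for phagocyte-like sums (738 and 125 at an unadjusted p under 0.05). The estimated free share of the endothelial-like sums was 26.1% in the LPS library, against 60.5% and 58.6% in controls 1 and 2.

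Dbp, the D-box activator and the most direct readout of E-box activity, had 7 UMIs in LPS endothelial-like cells, against 74 in control 1 and 220 in control 2. Those were 4.09 CPM in the LPS library, against 294 and 305, a log2 difference of -6.15 ± 0.66. Nr1d1, the gene of the REV-ERB alpha repressor of Arntl, stood at 19.3 CPM in LPS endothelial-like cells, against 107 and 226 in controls 1 and 2. The log2 difference was -3.16 ± 0.52.

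Fibroblast-like cells had 6 of 9 tested repressor and output genes lower and 0 higher (background 4.95% lower, median log2 difference -2.47), where DESeq2 called 2 lower and 0 higher. Dbp stood there at 5.59 CPM in the LPS library, against 206 and 185 in controls 1 and 2 (log2 difference -5.04 ± 0.68). Fibroblast markers also summed lower in this LPS class, at 12605 CPM against 34407 and 31965, and their part was not tested. Phagocyte-like cells had 2 of 9 lower, Nr1d1 and Dbp, and 0 higher (background 1.81%; 1 higher at an unadjusted p), where DESeq2 called 0 either way. Nr1d1 and Dbp had log2 differences of -2.91 ± 0.66 and -3.67 ± 0.71.

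Per1, a repressor gene that stress and glucocorticoid signals also induce, did not follow. It was at 53.8 CPM in LPS endothelial-like cells, against 59.6 and 43.0 in controls 1 and 2, and in phagocyte-like cells at 39.6 in the LPS library, against 5.32 and 8.62. The phagocyte-like difference, a log2 value of 2.31 ± 0.77, was not called.

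In lymphoid-like cells 0 of 8 tested repressor and output genes were called in either direction by edgeR (2 at an unadjusted p, 0 by DESeq2). Over all genes edgeR called 0 of 9544 genes lower (0%) and 1431 in either direction passed at an unadjusted p under 0.05, while DESeq2 called 31 genes lower. Dbp was at 9.84 CPM in the LPS library, against 10.3 in control 1 and 48.4 in control 2, so the controls themselves lay apart. The control 2 value stood beside 51.3 Dbp CPM in its erythroid-like cells, a level lowered by their large share of haemoglobin. Of the 7 kinase and ubiquitin ligase genes that act on clock proteins, 0 were called in any of the 4 classes by edgeR or DESeq2, with 5 or 6 tested in each and 1, in lymphoid-like cells, past an unadjusted p. Among 4 relatives of the members, Timeless, a replication fork gene named for a fly clock gene, was called higher in LPS endothelial-like cells (56 UMIs, against 0 and 8 in controls 1 and 2; log2 difference 2.05 ± 0.72), and 0 others were called by edgeR (1, in lymphoid-like cells, at an unadjusted p). DESeq2 called 0 of these relatives.

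**Figure D3:**
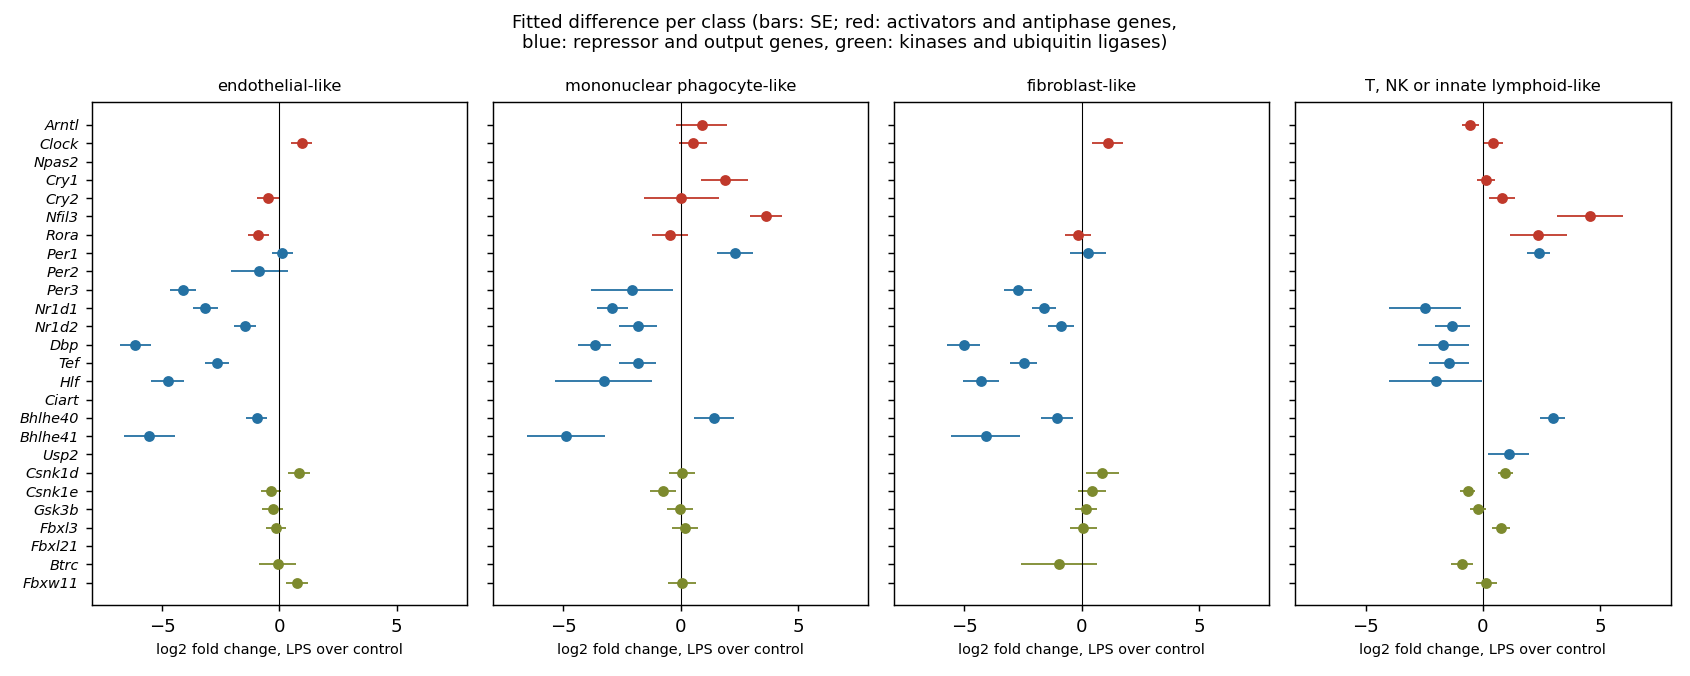
Fitted log2 fold change of LPS over control in each of 4 classes for members (red), repressor and output genes (blue) and kinases and ubiquitin ligases (green), with SE bars. Genes without a control UMI, such as Arntl in endothelial-like cells, and genes under the filter are not drawn. Dbp sits at -6.15 in endothelial-like and -5.04 in fibroblast-like cells, while the kinases and ligases lie between -0.96 and 0.95.

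**Figure D4:**
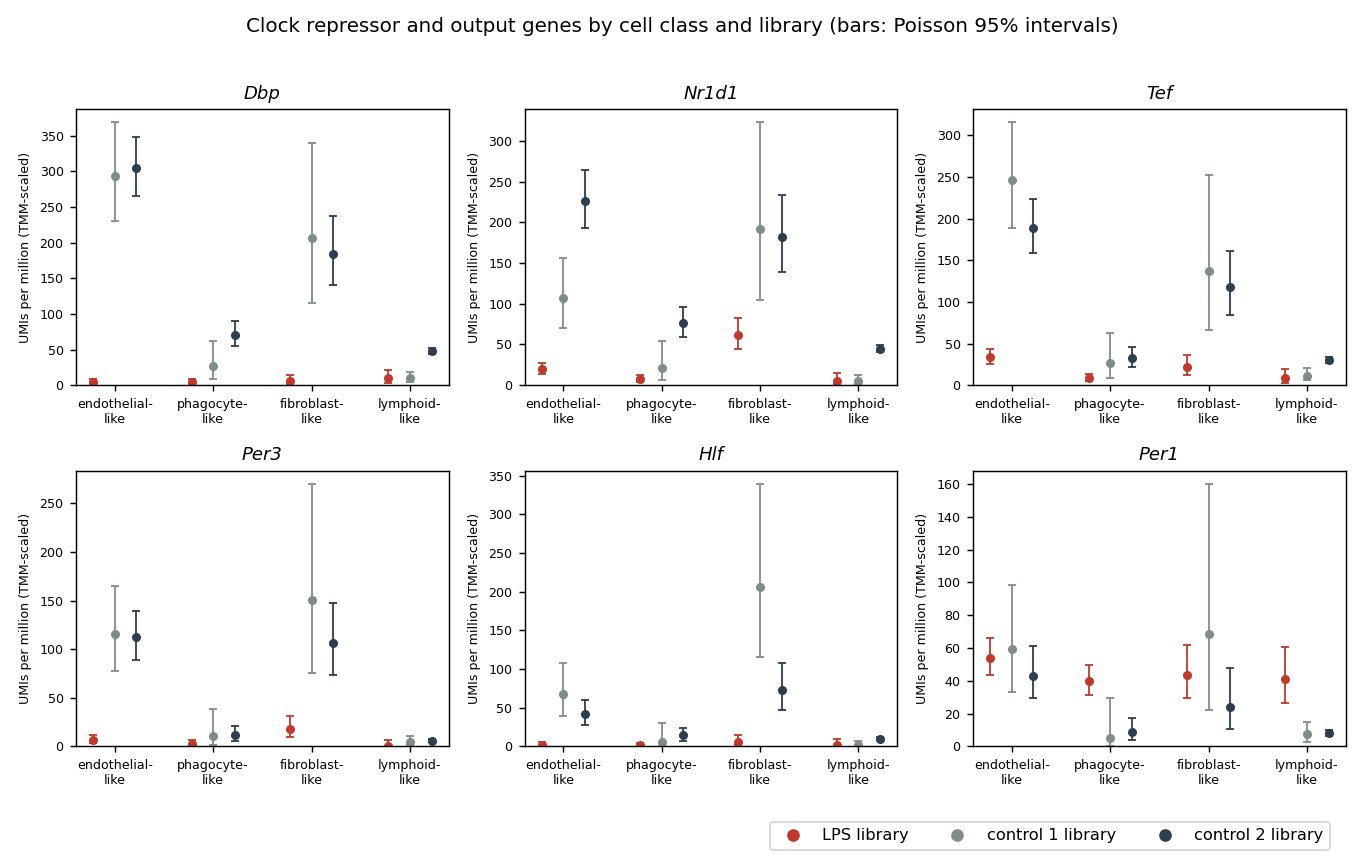
CPM (TMM-scaled within each class) of 6 repressor and output genes by class and library, with exact Poisson 95% intervals. Dbp in endothelial-like cells is at 4.09 in the LPS library beside 294 and 305 in the controls, and Per1 does not follow this pattern.

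Levels between cell classes of the untreated libraries did not enter the choice of the set, and clustering left the clock genes out. They were tested over 8 sums, 4 classes in each of 2 controls, with the library as a block, each class against the mean of the other 3. The 5 members that passed the filter were compared among 8585 genes, and in lymphoid-like cells 20.6% of those genes were called higher and 23.9% lower than in the other classes.

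Arntl and Cry1 were highest in lymphoid-like cells. Arntl had 46.5 and 51.5 CPM there in controls 1 and 2, against 12.5 and 9.39 in phagocyte-like cells and 0 in all sums of endothelial-like and fibroblast-like cells. It was called higher (edgeR adjusted p = 3.03e-07, and 3.40e-14 without a filter on low counts). Its highest count in a control sum of another class was 7 UMIs, so it passed the filter through the lymphoid-like sums alone. Over both controls the lymphoid-like level was 5.12 times the phagocyte-like one (counting interval 2.68 to 11.3), at least 15.9-fold above the endothelial-like and at least 5.80-fold above the fibroblast-like level.

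Cry1 had 31.0 and 41.1 CPM in lymphoid-like cells of controls 1 and 2, against 3.95 and 5.89 in endothelial-like, 6.27 and 8.04 in phagocyte-like cells and 0 and 0 in fibroblast-like cells. It was called higher (edgeR adjusted p = 2.59e-05, and 1.54e-08 without the filter). With at most 6 UMIs in a control sum of another class, Cry1 also passed the filter through the lymphoid-like sums alone. Over both controls the lymphoid-like Cry1 level was 7.48 times the endothelial-like level (3.18 to 23.2) and 5.18 times the phagocyte-like level (2.49 to 13.0). In both controls each of these lymphoid-like values lay above all other classes.

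Rora and Clock were called lower in lymphoid-like cells than in the mean of the other classes. Rora had 0 and 19.4 CPM there in controls 1 and 2, against 67.1 and 92.8 in endothelial-like cells, with a log2 difference from the other classes of -2.29 ± 0.47 (edgeR adjusted p = 0.000159). Clock had 18.6 and 21.8 CPM, against 55.2 and 47.1 in endothelial-like cells, with a log2 difference of -0.89 ± 0.37 (edgeR adjusted p = 0.0479). Over both controls the lymphoid-like Clock level was 0.436 times the endothelial-like one (counting interval 0.317 to 0.611). It was 0.694 times the phagocyte-like (0.469 to 1.07) and 0.565 times the fibroblast-like level (0.324 to 1.08), intervals that include no difference. The Clock call was kept in 3 of 9 alternative analyses and the Rora call in 8 of 10.

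In endothelial-like cells Rora and Cry2 were called higher than in the mean of the other classes (13.6% of genes were called higher and 4.51% lower). They did not stand apart from fibroblast-like cells. Over both controls the endothelial-like level was 1.05 times the fibroblast-like one for Rora (counting interval 0.673 to 1.67). For Cry2 it was 1.74 times (0.799 to 4.3), and both intervals include no difference. The log2 differences were 1.54 ± 0.45 for Rora and 1.60 ± 0.54 for Cry2 (edgeR adjusted p = 0.0129 and 0.0330), and 4 of 10 and 2 of 9 alternatives kept these calls. DESeq2 called 0 members here. For phagocyte-like and for fibroblast-like sums 0 of 5 members were called by edgeR and 0 by DESeq2, while 11.6% and 9% of genes were called higher and 2.99% and 3.53% lower by edgeR. At an unadjusted p 1 member passed for phagocyte-like sums (Arntl) and 2 for fibroblast-like sums (Rora and Cry1).

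The output genes were low in the same lymphoid-like sums. Of 10 repressor and output genes tested, edgeR and DESeq2 each called 9 lower and 0 higher in control lymphoid-like cells than in other classes. Of all genes edgeR called 23.9% lower. Per3 had 4.14 and 5.66 CPM in lymphoid-like cells of controls 1 and 2, against 114 and 119 in endothelial-like cells. Its log2 difference from the other classes was -3.52 ± 0.44 (edgeR adjusted p = 8.51e-08). In phagocyte-like cells edgeR called 0 of 10 higher and 3 lower (2.99% of all genes), Per3 among them at 12.5 and 14.7 CPM, and DESeq2 called 1 lower. In endothelial-like and in fibroblast-like cells edgeR called 7 of 10 higher (13.6% and 9% of all genes), and DESeq2 called 6 and 5.

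**Figure D5:**
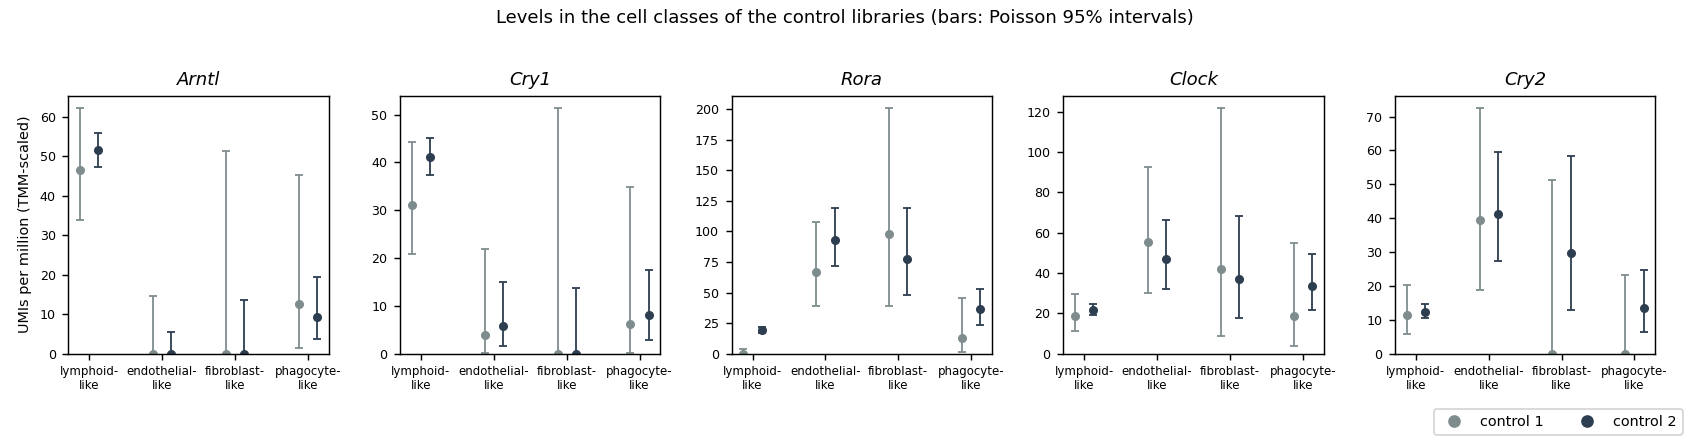
CPM (TMM-scaled over the 8 control sums) of the 5 tested members in lymphoid-like, endothelial-like, fibroblast-like and phagocyte-like cells of control 1 and control 2, with exact Poisson 95% intervals. Arntl (46.5 and 51.5) and Cry1 (31.0 and 41.1) are highest in lymphoid-like cells, where Rora (0 and 19.4) is below the endothelial-like level in both controls.

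Arntl was read in lymphoid-like sub-clusters rich and poor in Rag1. In control 1 Rag1-rich sub-clusters had 44.5 CPM and the others 37.5, and in control 2 they had 60.5 and 47.0. Cry1 was at 30.4 in Rag1-rich cells of control 1 and 18.8 in the others, whereas in control 2 it was at 43.0 and 72.6. The order for Cry1 differed between the controls.

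Classes outside the tested ones add levels at small counts. Mesothelial-like cells of the LPS library (64 cells) had 30.0 Arntl, 106 Clock and 57.3 Rora CPM, close to the LPS endothelial-like cells for Arntl. By clusters, smooth muscle-like cells were named in the controls alone, whereas classing cells by marker UMIs gave 289 in the LPS library, against 50 and 287 in controls 1 and 2. In the clusters, 144 cells of control 2 held 24 Rora UMIs (102 CPM) and 0 of Arntl in 235490 UMIs, which allows up to 12.7 CPM. Neutrophil-like cells of the LPS library (35 cells) had 0 Arntl UMIs in 377427, 13 of Cry1 and 23 of Nfil3.

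The genes whose levels most resembled each member were sought over the 12 sums (4 classes in 3 libraries) among 8909 genes, as Pearson's r of log2(CPM + 1). The sums of a library share its depth and free RNA, so r is a description. Slc7a11, a cystine transporter, was most like Arntl (r = 0.96), followed by Atp13a3 (0.95) and Snrpb2 (0.93). Snrpb2, a spliceosome protein gene, was also most like Cry1 (0.95). Hp, the gene of the acute phase protein haptoglobin, was most like Nfil3 (0.98), followed by Cebpb (0.90), a transcription factor of the acute phase, and Irf7 (0.89), of the interferon response. Clock was most like Sorbs3 (0.97), Cry2 most like Smyd2 (0.98) and Rora most like Parva (0.94), and Npas2, with 36 UMIs, was too low to be ranked.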

How the data were processed

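Droplet single-cell libraries of 1 LPS and 2 control pools were analysed. The authors deposited raw counts of UMIs for every gene and barcode. Cell Ranger 3.1, the mm10 build, R 4.2.1 and Seurat 4.2.0 are named per the submitters' processing notes; no source used here names the annotation release. Barcodes with at least 500 UMIs, 300 genes and no more than 15% of UMIs from mitochondria passed (8284 of 12082). Scrublet marked 0, 2 and 4 in the LPS, control 1 and control 2 libraries; these were removed, but so few marks show that the caller did not work, and doublets remain possible.

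Cells were clustered in 2 steps with scanpy 1.11.5 and leidenalg 0.10.2 without clock genes, and clusters were named from marker lists. The erythroid list was read only in clusters with at least 25% haemoglobin UMIs, a rule chosen after seeing the data. Haemoglobin made up 25.2, 44.0 and 7.91% of all UMIs in the LPS, control 1 and control 2 libraries.

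UMIs were summed per library and class and tested with edgeR 4.0.16 (quasi-likelihood test, TMM factors, filterByExpr, Benjamini-Hochberg adjustment at 0.05 over all genes), with DESeq2 1.42.0 as an alternative, in R 4.3.3; the scripts were tested on simulated data. With 2 controls against 1 LPS library 1 residual degree of freedom carries the spread, the LPS library is taken to vary as the controls do, and an exact permutation test of a single value could not go below a p of 0.333. Members and lists were chosen with earlier results of these data known. The members are named in full, the other clock genes by list, and the genes most like a member by rank of r. Intervals and the floor of 3 UMIs, taken over both controls, cover counting error only. P-values of LPS against control measure the spread between the control libraries. The SE of a log2 difference was taken back from the F statistic of the same edgeR fit, so it rests on the same spread. The class contrasts had the library as a block and 3 residual degrees of freedom. Their p-values measure how far differences between classes vary between the 2 controls. Either spread may be technical.

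Gene positions (GENCODE release 21 for mouse, GRCm38) place Arntl on chromosome 7 (113207465 to 113314126), Clock on 5 (76209868 to 76304792), Npas2 on 1 (39193731 to 39363236), Cry1 on 10 (85131700 to 85185064), Cry2 on 2 (92403646 to 92434043), Nfil3 on 13 (52967209 to 52981073) and Rora on 9 (68653786 to 69388246).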

Additional observations from a re-analysis of the deposited data

Results flagged for a closer look

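Named here are the members for which the LPS library lay above both controls in one class and below both in another. The difference between classes was not tested.

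Arntl was above both controls in LPS endothelial-like (at least 10.6-fold), phagocyte-like (ratio 1.96) and fibroblast-like cells (at least 1.88-fold), and below both in lymphoid-like cells (ratio 0.662). The counting intervals of the phagocyte-like and lymphoid-like ratios include no difference, and the phagocyte-like and fibroblast-like levels lay below those of near-empty barcodes. Cry2 was above both controls in LPS fibroblast-like (ratio 1.97) and lymphoid-like cells (ratio 1.70) and below both in endothelial-like cells (ratio 0.719), and all 3 counting intervals include no difference. Rora was above both controls in LPS lymphoid-like cells (ratio 3.53) and below both in endothelial-like cells (ratio 0.519).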

How the results depend on the processing

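The number of genes called for LPS in endothelial-like cells was 1202, and 307 with DESeq2, 634 with the stricter cell filter, 241 with all classes fitted together and 0 with estimated free RNA subtracted (edgeR; 738 at an unadjusted p under 0.05). In phagocyte-like cells it was 471, and 87, 208 and 0 (125 unadjusted) with DESeq2, the joint fit and free RNA subtracted. In fibroblast-like cells it was 702, and 127 with DESeq2, 166 with the joint fit and 0 (1237 unadjusted) without a filter on low counts. In lymphoid-like cells it was 73, and 168 with DESeq2, 960 without the filter, 519 with the stricter cell filter, 284 with free RNA subtracted, 294 with the joint fit, and 0 with RLE factors, with classes set by marker UMIs or in Rag1-rich sub-clusters (edgeR; 1318, 1365 and 1247 unadjusted). Class contrasts in controls with free RNA subtracted called 891 genes for endothelial-like, 608 for phagocyte-like, 565 for fibroblast-like and 1506 for lymphoid-like sums. The cause was not tested.

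Directions reversed for values that were not called. LPS over control, Cry2 in phagocyte-like cells ranged from -0.45 without control replicate 1 to 6.07 without control replicate 2 and was -0.062 in the joint fit, Rora there ranged from -0.79 without control replicate 1 to 0.66 without control replicate 2, and Clock in lymphoid-like cells -0.83 with free RNA subtracted. Between classes, endothelial-like Cry1 was -0.52 with DESeq2 and -1.34 with the LPS library added, which also gave -0.38 for Arntl and -0.021 for Cry1 in phagocyte-like cells; Cry2 ranged from -3.98 without control replicate 2 to 0.60 without control replicate 1 in fibroblast-like cells, and from -0.90 without control replicate 1 to 2.81 without control replicate 2 in lymphoid-like cells, where it was 0.74 with free RNA subtracted.

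The lymphoid-like calls of Arntl and Cry1 were kept in 10 of 10 and 7 of 7 alternatives that tested them (highest adjusted p 0.0421 and 0.000804), and Cry1 did not pass the filter in the other 3. In the main fit both genes passed the filter through the lymphoid-like sums alone, where they are high. The counts of kept calls are thus a description, and no support is drawn from them. No paired analysis was possible because the labels number no replicates and the LPS and control groups share fewer than 2 numbers; without the replicate block of library in the class contrasts, 1132 genes were called for endothelial-like, 945 for phagocyte-like, 763 for fibroblast-like and 3486 for lymphoid-like sums, and Rora and Cry2 in endothelial-like cells lost their calls (adjusted p 0.160 and 0.0816). Alternatives using the haemoglobin-rule sub-cluster and Rag1 were chosen after seeing the data. Leaving out a control left no residual degrees of freedom, so those values have no test. Few or no UMIs limit Npas2 in most sums and Arntl in control endothelial-like and fibroblast-like sums.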
